A study of Mus musculus with 6 samples.

Results

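Cytochrome P450 genes encode heme enzymes that insert oxygen into drugs, steroids, fatty acids and other lipids. Most sit on the cytosolic face of the endoplasmic reticulum (ER) and take electrons from NADPH through P450 oxidoreductase, the product of Por. Families 1 to 3 are best known for drugs and foreign chemicals, family 4 for fatty acids, and the higher numbered families mostly for steroids, vitamins and retinoids. In liver many of them are driven by nuclear receptors such as CAR, PXR and PPARα, and several are switched by the sex-dependent pattern of growth hormone.

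The genes were chosen by symbol, as Cyp followed by a family number, a subfamily letter and a member number. Cyp7a1, Cyp7b1, Cyp8b1 and Cyp27a1, which make bile acids, were left out. Of 19057 named genes with a probe, 82 met this rule. Family 1 held 3 of them, family 2 held 43, family 3 held 7, family 4 held 17 and the other families 12. In the annotation used here no probe was named Por, and none was named Cyp4a10, so both are not analysed here. Cyp4b1-ps2 and Cyp4f41-ps are named as pseudogenes.

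RNA came from whole liver of C57Bl/6N mice aged 8 weeks. The treated mice had received intraperitoneal tunicamycin at 2.5 mg/kg, dissolved in DMSO and diluted in PBS with 100 mM glucose. The controls received vehicle alone, and liver was taken 12 h later. Tunicamycin blocks N-linked glycosylation and so loads the ER with unfolded proteins. Each group had 3 samples, each read on 1 Illumina bead array, and the labels give no sex. Each array had 15503 to 16603 of 45281 probes with a detection p under 0.05, and median raw bead signals of 88.9 to 96.8.

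A gene was tested where 3 or more of the 6 arrays detected a probe of it (detection p below 0.05). This held for 42 of the 82 genes, of which 40 were detected on all 6 arrays. Values are log2 bead intensity after background correction and quantile normalization, given in the order of replicates 1, 2 and 3. Each fold change is tunicamycin against vehicle for the gene's brightest probe, with its standard error (SE). A gene is said to have risen or fallen where limma's adjusted p, taken over all 11678 items tested, was under 0.05.

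After tunicamycin most of the P450 genes that could be tested had fallen, while 6 had risen, among them Cyp2b10 by 30.5-fold and Cyp2b23 by 14.6-fold. Of the 42, 28 fell, 6 rose and 8 did not pass the test. Falls made up 66.7% of the tested P450 genes, beside 31.4% of all items, and rises 14.3%, beside 31.0% of all items. Among items detected on all 6 arrays 32.9% fell and 33.6% rose, beside 27 and 5 of the 40 P450 genes detected on all of them. The median log2 fold change was -0.80, with quartiles of -1.31 and 0.06, against a median of -0.01 and quartiles of -0.48 and 0.46 over all items. Falls of at least 2-fold were seen for 16 genes, where 11.5% of all items were called with such a fall. The 3 arrays of the groups did not overlap for 34 of the 42 genes, or 81.0%, beside 66.7% of all items. In whole liver, fewer cells of a type and less RNA per cell cannot be told apart.

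**Figure D1:**
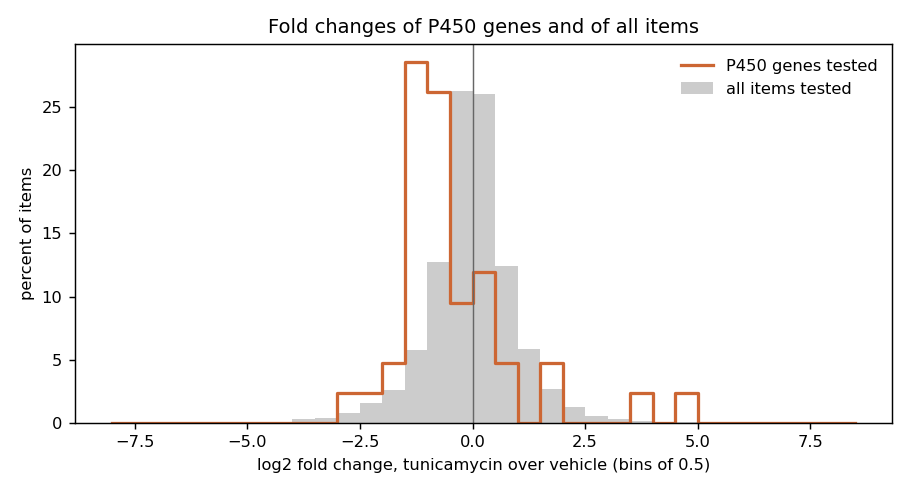
Log2 fold changes (x axis, tunicamycin over vehicle, bins of 0.5) of the 42 tested P450 genes (orange line) and of all 11678 items (grey), each as percent of its set (y axis). The P450 genes pile up below 0, around their median of -0.80, and the 2 genes beyond 3.5 are Cyp2b23 and Cyp2b10.

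Much of the array was called in this comparison, 62.4% of items in either direction, with 31.4% lower and 31.0% higher. The marker counts below stand beside these shares. The lowest correlation between arrays of the same group was 0.989 and the highest between groups 0.904, across the 11678 tested items. Hepatocyte markers without P450 genes were present, with 10 of 13 tested. Of these, 6 fell and 0 rose, and their summed normalized intensity went from 136159 to 143841 on the vehicle arrays to 111623 to 114017 on the tunicamycin arrays. The hepatocyte marker Fgb was not detected on any array, Tf had no named probe, and Alb had a probe but did not pass the detection filter. Whether such missing signals come from the probe or the transcript was not tested. All 7 tested periportal hepatocyte markers fell (median log2 fold change -2.18), whereas 4 of 9 tested pericentral markers fell and 1 rose, with a median of -0.36. Of these, Pck1 (periportal) and Lgr5 and Rgn (pericentral) were detected on all 3 vehicle arrays and on 0 tunicamycin arrays. They passed the detection filter only through the vehicle arrays, so their place among the tested markers is not independent of their falls. The pericentral marker Glul was not detected on any array. Macrophage markers fell for 11 of 12 tested, with summed intensity of 3645 to 5324 on vehicle and 858 to 2424 on tunicamycin arrays. Falls were also called for 6 of 10 sinusoidal endothelial, 4 of 8 stellate cell, 2 of 3 erythroid, 1 of 2 lymphocyte and 0 of 2 cholangiocyte markers, and of 3 neutrophil markers 1 rose. Erythroid Slc4a1 was detected on 3 vehicle and 0 tunicamycin arrays, and lymphocyte Cd79b on 3 and 1. Neutrophil Retnlg, which rose, was detected on 1 vehicle and 3 tunicamycin arrays, so the limit given for Pck1 holds for these calls too. The part of these shifts in the P450 values was not tested.

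Both tested Cyp2b genes rose. Cyp2b10, the phenobarbital-inducible target of the receptor CAR, stood at 6.27, 6.32 and 6.12 on the vehicle arrays and at 11.60, 10.49 and 11.41 on the tunicamycin arrays. Every tunicamycin array was far above every vehicle array, with replicate 2 the lowest of its group. The rise was 30.5-fold (log2 fold change 4.93 ± 0.24 SE, n = 3 per group, limma adjusted p = 1.02e-07). The other Cyp2b10 probe rose as well, by 0.95 on the log2 scale, so the size for this gene depends on the probe, and the mean of both gave a log2 fold change of 2.94. That other probe was near background and detected on 4 arrays, namely vehicle replicate 1 and all 3 tunicamycin arrays. It passed the detection filter only through the tunicamycin arrays, so its place among the kept probes is not independent of its rise. Its raw signals were 97.6, 94.3 and 89.6 with vehicle and 113.6, 105.7 and 127.9 with tunicamycin. Cyp2b23, which lies on chromosome 7 as Cyp2b10 does, was detected on 1 vehicle array and on all 3 tunicamycin arrays. Its raw bead signals were 96.5, 98.1 and 92.1 with vehicle and 421.6, 278.5 and 621.8 with tunicamycin, again lowest at replicate 2 among the treated. On the normalized scale it rose 14.6-fold (3.87 ± 0.24 SE, limma adjusted p = 4.88e-07). Since Cyp2b23 passed the detection filter only through the tunicamycin arrays, its presence among the tested genes is not independent of its rise. The other Cyp2b23 probe was detected on no array, with raw signals of 87, 87 and 89 with vehicle and 84.2, 90.3 and 90.2 with tunicamycin, so the rise rests on 1 probe. Whether a probe of either gene also reads the other's transcript was not tested. Without background correction the log2 fold changes were 3.99 for Cyp2b10 and 2.07 for Cyp2b23, so the size of the rise also rests on the background step.

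The other Cyp2b genes on the array gave little signal. Cyp2b9, a female-predominant member in mice, had raw signals of 94.7, 90.1 and 87.8 with vehicle and 97.9, 91.1 and 108.4 with tunicamycin. It was detected on tunicamycin replicates 1 and 3 only and was not tested. Cyp2b13 was not detected on any array, with raw signals of 83.2 to 90.

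The starts of Cyp2b10 and Cyp2b23 are shown here because these 2 genes had the steepest rises of all tested P450 genes. Each line gives the 250 bases before the gene's start, from RefSeq on GRCm38.p6. Cyp2b10 is at chr7:25897408-25897657 on the plus strand and Cyp2b23 at chr7:26686431-26686680 on the minus strand. Both are written 5′ to 3′ along the gene, and capitals mark a match to TTATGNAA, a pattern of the PAR bZIP factors such as DBP, on the opposite strand.
Cyp2b10: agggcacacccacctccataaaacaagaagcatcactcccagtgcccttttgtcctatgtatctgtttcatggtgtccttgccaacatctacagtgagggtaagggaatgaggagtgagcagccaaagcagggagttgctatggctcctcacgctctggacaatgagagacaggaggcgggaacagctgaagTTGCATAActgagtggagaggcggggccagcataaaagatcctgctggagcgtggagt
Cyp2b23: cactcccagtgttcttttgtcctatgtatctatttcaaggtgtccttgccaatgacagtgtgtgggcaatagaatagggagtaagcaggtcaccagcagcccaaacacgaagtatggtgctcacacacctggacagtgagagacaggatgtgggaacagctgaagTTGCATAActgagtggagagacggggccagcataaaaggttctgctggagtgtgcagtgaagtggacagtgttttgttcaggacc
The match lay 58 to 51 bases before the start in Cyp2b10 and 85 to 78 bases before it in Cyp2b23, and the flanking bases were closely alike. The aligned windows were 72.0% identical. Searched on both strands, TTATGNAA was present in 3.07% of 32851 promoter windows. Of the 29 tested P450 genes with a window, it was present in 2 of 3 that rose, 1 of 20 that fell and 1 of 6 not called. Those 4 genes were Cyp2b10, Cyp2b23, Cyp4f14 and Cyp2a5. A match in letters is a description and does not show a bound site.

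**Figure D2:**
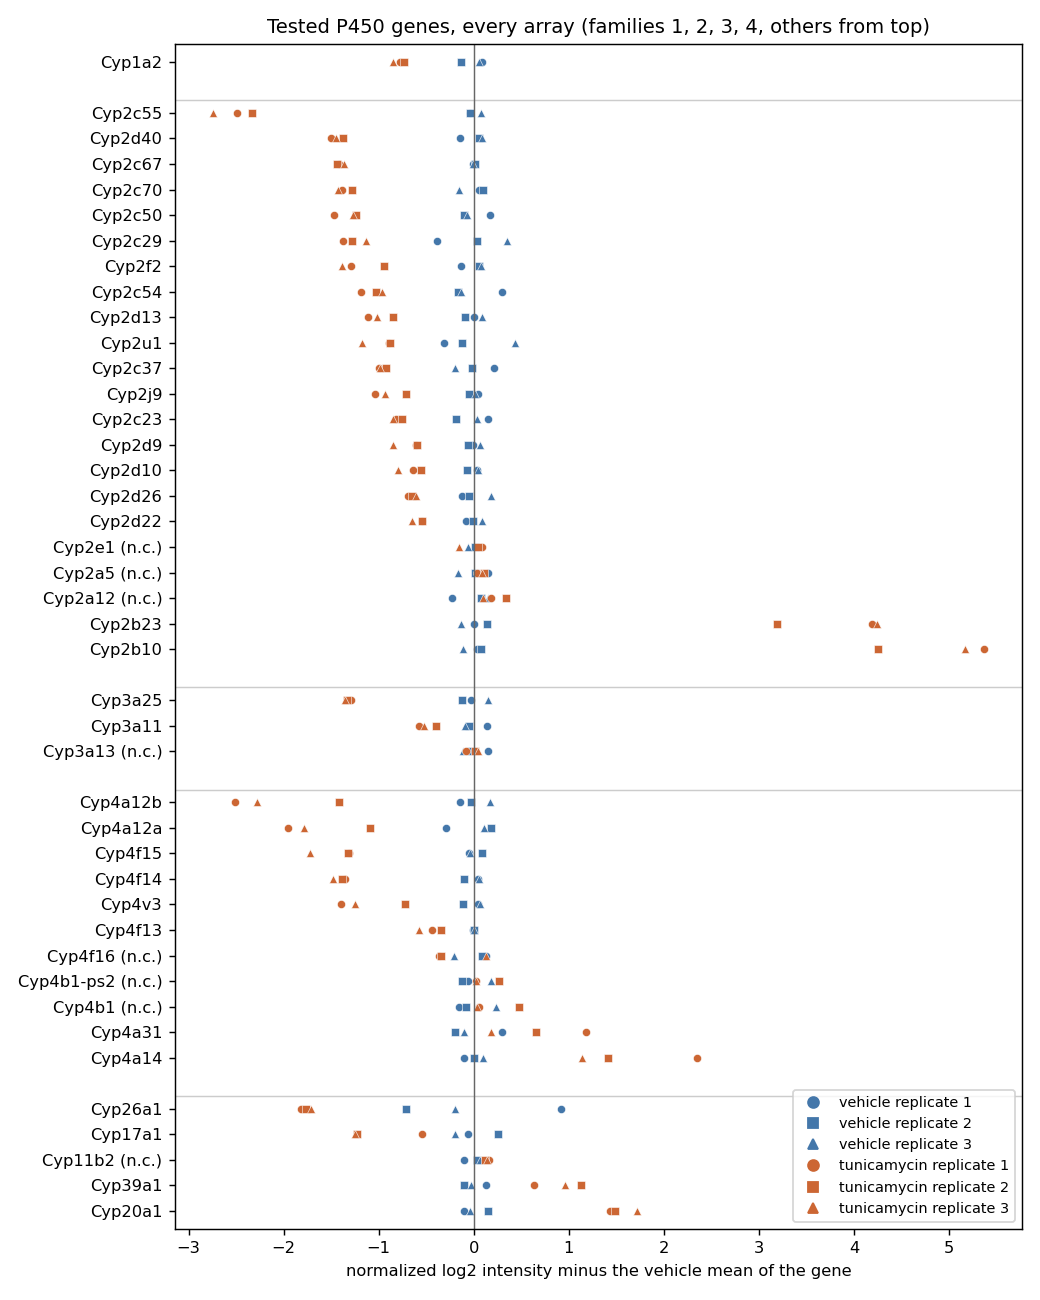
Difference of each array from the gene's vehicle mean (x axis, log2 units) for the tested P450 genes, with vehicle arrays in blue and tunicamycin arrays in orange, and circles, squares and triangles for replicates 1, 2 and 3. Genes marked n.c. were not called. The Cyp2c and Cyp2d genes lie to the left of 0 on all 3 tunicamycin arrays, and Cyp2b10 and Cyp2b23 far to the right.

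All 8 tested Cyp2c genes fell (median log2 fold change -1.30), and 6 of them fell by at least 2-fold. The array carries 13 genes of this subfamily, many of which act on arachidonic acid and drugs. Cyp2c55, which hydroxylates arachidonic acid, went from 7.59, 7.60 and 7.70 to 5.13, 5.29 and 4.89. The groups were wide apart, and this 5.76-fold fall was the steepest of the 42 genes (-2.52 ± 0.12 SE, limma adjusted p = 9.61e-08). Without background correction its log2 fold change was -1.33. Cyp2c70, which makes muricholic acids and so gives mouse bile its character, went from 13.42, 13.45 and 13.21 to 11.97, 12.08 and 11.93. All 3 treated arrays lay more than 1 log2 unit below all controls, a 2.58-fold fall (-1.37 ± 0.11 SE, limma adjusted p = 2.67e-06). Cyp2c67 was very even within groups, at 11.92, 11.94 and 11.92 with vehicle and 10.51, 10.49 and 10.56 with tunicamycin. It fell 2.66-fold (-1.41 ± 0.10 SE, limma adjusted p = 8.09e-07), and its other probe fell further, by 1.63 on the log2 scale.

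The other 5 tested Cyp2c genes, most of them known as arachidonic acid epoxygenases, fell as well. Cyp2c37 went from 12.70, 12.46 and 12.29 to 11.48, 11.56 and 11.49, without overlap (-0.97 ± 0.12 SE, limma adjusted p = 6.7e-05). Cyp2c50 went from 12.11, 11.84 and 11.88 to 10.47, 10.70 and 10.67, also without overlap (-1.33 ± 0.12 SE, limma adjusted p = 5.47e-06). Its other kept probe fell by 0.53 on the log2 scale, but was near background and detected on the 3 vehicle arrays only. It passed the detection filter only through those arrays, so its place among the kept probes is not independent of its fall. Raw signals of that probe were 98.8, 105.6 and 98.2 with vehicle and 86.5, 88.8 and 91.1 with tunicamycin. Cyp2c54 had a log2 fold change of -1.06 ± 0.14 and Cyp2c23 of -0.81 ± 0.12. Cyp2c29, which was dim on this array, had raw signals of 143.1, 153.9 and 171.2 with vehicle and 100.2, 108.2 and 121.3 with tunicamycin. Its log2 fold change was -1.26 ± 0.17 with background correction and -0.54 without it. In the order of genes in GRCm38.p6, all of these except Cyp2c23 lie in a run of 14 coding genes on chromosome 19, every one of which is a P450 gene. Bead probes of such close relatives may bind more than 1 transcript. Probe sequences were not used here, so the share of each gene in a probe's signal was not tested.

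The starts of 4 Cyp2c genes that fell are printed because they carry a short sequence that is uncommon among promoters. Capitals mark CAAAGTNCA, a pattern of the hepatocyte factor HNF4, and, in Cyp2c67 and Cyp2c70, TATAAA, the TATA box, on either strand. Each holds the 250 bases before the start in RefSeq on GRCm38.p6, written 5′ to 3′ along the gene. Cyp2c37 is at chr19:39992174-39992423 and Cyp2c50 at chr19:40089429-40089678, both on the plus strand. Cyp2c67 is at chr19:39649043-39649292 and Cyp2c70 at chr19:40187287-40187536, both on the minus strand.
Cyp2c37: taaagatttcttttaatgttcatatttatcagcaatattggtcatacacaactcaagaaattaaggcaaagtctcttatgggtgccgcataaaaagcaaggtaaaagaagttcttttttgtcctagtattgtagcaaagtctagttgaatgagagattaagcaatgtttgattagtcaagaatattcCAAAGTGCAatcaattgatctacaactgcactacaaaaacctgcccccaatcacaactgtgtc
Cyp2c50: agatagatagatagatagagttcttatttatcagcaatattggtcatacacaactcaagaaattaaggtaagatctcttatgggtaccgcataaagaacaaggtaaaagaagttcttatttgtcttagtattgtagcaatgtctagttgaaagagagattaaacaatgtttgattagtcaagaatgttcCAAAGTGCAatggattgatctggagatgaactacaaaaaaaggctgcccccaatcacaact
Cyp2c67: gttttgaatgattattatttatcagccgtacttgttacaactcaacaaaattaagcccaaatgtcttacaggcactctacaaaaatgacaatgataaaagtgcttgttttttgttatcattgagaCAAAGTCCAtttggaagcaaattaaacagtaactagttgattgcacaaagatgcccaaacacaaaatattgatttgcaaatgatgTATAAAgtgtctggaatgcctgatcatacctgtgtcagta
Cyp2c70: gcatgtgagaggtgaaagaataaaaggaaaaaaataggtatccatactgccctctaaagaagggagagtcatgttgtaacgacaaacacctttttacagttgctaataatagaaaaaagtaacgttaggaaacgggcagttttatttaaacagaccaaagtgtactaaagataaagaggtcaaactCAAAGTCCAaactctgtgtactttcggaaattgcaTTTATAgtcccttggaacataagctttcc
The HNF4 type match began 63 bases before the start in Cyp2c37, 61 in Cyp2c50, 125 in Cyp2c67 and 64 in Cyp2c70. Over both strands it was present in 7 of 20 P450 genes that fell, 0 of 3 that rose and 0 of 6 not called, and in 1.19% of all 32851 windows. The other 3 genes with it were Cyp2d26, Cyp3a11 and Cyp26a1. TATAAA was present in 10 of the 20 that fell, 0 of 3 that rose and 3 of 6 not called, beside 12.4% of all windows. TGATGNAA, a pattern of C/EBP and ATF factors, was present in Cyp3a11 alone among the 29, beside 3.45% of all windows. The ER stress element, a spaced motif bound by ATF6 with NF-Y, was present in 0 of the 29, beside 0.113% of all windows. The genes with a shared pattern are not independent of each other. Cyp2c37 and Cyp2c50 were 86.0% identical over the aligned windows, where pairs from the same subfamily had a median of 55.6% (n = 32 pairs) and pairs from different subfamilies 50.4% (n = 374 pairs).

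All 6 tested Cyp2d genes, of 8 on the array, fell, with a median log2 fold change of -0.68. Cyp2d9, a male-predominant steroid 16α-hydroxylase, went from 13.37, 13.31 and 13.43 to 12.77, 12.78 and 12.52, without overlap (-0.68 ± 0.11 SE, limma adjusted p = 0.000383). Cyp2d10 and Cyp2d26 moved by similar amounts, -0.67 ± 0.11 and -0.65 ± 0.11. Cyp2d22, often set beside human CYP2D6, fell 1.49-fold (-0.58 ± 0.10 SE, limma adjusted p = 0.000646). Cyp2d40 fell most in the subfamily, from 10.40, 10.59 and 10.63 to 9.04, 9.17 and 9.09 (-1.45 ± 0.11 SE, limma adjusted p = 1.55e-06). Its treated arrays lay more than 1 log2 unit below all controls. Cyp2d13 fell 1.99-fold (limma adjusted p = 2.86e-05). It was detected on all 3 vehicle arrays and 2 of the tunicamycin arrays, and without background correction its log2 fold change was -0.33. In the order of genes 5 of the tested Cyp2d genes lie within 9 coding genes on chromosome 15, of which 8 are P450 genes.

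Other genes of family 2 included those that did not pass the test. Cyp2e1, the pericentral enzyme that oxidizes ethanol and acetaminophen, stood at 14.06, 14.03 and 13.96 with vehicle and 14.10, 14.06 and 13.86 with tunicamycin. The groups overlapped, and the log2 fold change was -0.01 ± 0.11 SE with a 95% interval of -0.25 to 0.23 (limma adjusted p = 0.938). This interval leaves out a fall of the size seen for any of the 8 Cyp2c genes. Over the 16 alternatives the log2 fold change of Cyp2e1 was -0.22 to 0.06. Its raw signals were 18734.3, 18139.7 and 17344 with vehicle and 14296.5, 16340.2 and 15936.3 with tunicamycin, below the highest signal of 29644.5 on any array. Before normalization the groups thus did not overlap, and whether signals this high are compressed was not tested. Cyp2a5, which oxidizes coumarin and nicotine, had 5 probes with log2 fold changes between -0.05 and 0.22, none of them called. Its brightest probe gave 12.43, 12.29 and 12.11 with vehicle and 12.31, 12.39 and 12.36 with tunicamycin (95% interval of the log2 fold change -0.17 to 0.33, limma adjusted p = 0.572). Cyp2a12, a bile acid hydroxylase in mice, had a log2 fold change of 0.20 ± 0.13 with an interval of -0.08 to 0.49 (limma adjusted p = 0.197). These 3 were the members of family 2 that were tested and not called.

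Cyp2f2, a periportal enzyme known for activating naphthalene, fell. It went from 13.32, 13.51 and 13.54 to 12.16, 12.51 and 12.06, without overlap (2.31-fold, -1.21 ± 0.14 SE, limma adjusted p = 2.89e-05). Cyp2u1, which hydroxylates long-chain fatty acids, went from 5.52, 5.71 and 6.26 to 4.94, 4.95 and 4.65 (-0.99 ± 0.18 SE, limma adjusted p = 0.000897). Without background correction the log2 fold change of this dim gene was -0.36. Cyp2j9 was the only gene of 7 in its subfamily that was tested, and its log2 fold change was -0.90 ± 0.11, or -0.34 without background correction. Cyp2j5 was not detected on any array, with raw signals of 85.4 to 90.9, near the median raw signal of the arrays. Cyp2r1, a vitamin D 25-hydroxylase, was not detected either.

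In family 1, Cyp1a2, which oxidizes caffeine and aromatic amines, fell from 11.91, 11.69 and 11.87 to 11.04, 11.09 and 10.97. The groups did not overlap (1.73-fold, -0.79 ± 0.11 SE, limma adjusted p = 0.000112), and its other probe fell by 0.73 on the log2 scale. Cyp1a1, the classic target of the aryl hydrocarbon receptor (AhR), and Cyp1b1 were not detected on any array. Raw signals of Cyp1a1 were 83.9 to 88.9.

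In family 3, 2 of 3 tested genes fell. Cyp3a11, the main drug-metabolizing member in mouse liver and a PXR target, went from 14.15, 13.96 and 13.91 to 13.42, 13.60 and 13.48. The arrays did not overlap, and the fall was 1.42-fold (-0.50 ± 0.11 SE, limma adjusted p = 0.00273). Cyp3a25 went from 11.57, 11.47 and 11.75 to 10.31, 10.26 and 10.25, a wider gap of 2.51-fold (-1.33 ± 0.11 SE, limma adjusted p = 2.88e-06). Cyp3a13 stood at 11.12, 10.94 and 10.86 with vehicle and 10.89, 10.99 and 11.02 with tunicamycin, and the groups overlapped. Its log2 fold change was -0.01 ± 0.11 SE with a 95% interval of -0.26 to 0.24 (limma adjusted p = 0.944), and 0 of its 3 probes were called. The female-predominant Cyp3a41b and Cyp3a44 were not detected on any array.

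In family 4 the Cyp4a genes, which place a hydroxyl group at the end of fatty acids, moved in opposite directions. The 4 tested genes are all those of the subfamily with a named probe, and they lie within a run of 6 coding genes on chromosome 4, all of them P450 genes. Cyp4a14, a strongly inducible PPARα target, rose from 8.94, 9.05 and 9.14 to 11.39, 10.46 and 10.18. The treated arrays were all above the controls but spread widely among themselves (3.10-fold, 1.63 ± 0.26 SE, limma adjusted p = 0.000298). Cyp4a12a, the male-predominant enzyme that makes 20-HETE, fell from 12.27, 12.74 and 12.67 to 10.61, 11.47 and 10.77. This was a 3.06-fold fall without overlap (-1.61 ± 0.21 SE, limma adjusted p = 9.66e-05). Cyp4a12b, its near-identical neighbour, fell from 10.76, 10.87 and 11.07 to 8.39, 9.48 and 8.62 (4.20-fold, -2.07 ± 0.24 SE, limma adjusted p = 3.57e-05). In both Cyp4a12 genes tunicamycin replicate 2 lay nearest to the controls, and how far their probes read the same transcripts was not tested.

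Cyp4a31 stood at 8.20, 7.71 and 7.80 with vehicle and at 9.08, 8.56 and 8.08 with tunicamycin, so that the groups overlapped. It passed the threshold narrowly (1.59-fold, 0.67 ± 0.23 SE, limma adjusted p = 0.0262). The call was lost in 7 of 16 alternatives, among them leaving out vehicle replicate 2 or 3 or tunicamycin replicate 1 or 2, with adjusted p from 0.00109 to 0.147 over all 16. Its log2 fold change was 0.42 to 0.92 over these alternatives.

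**Figure D3:**
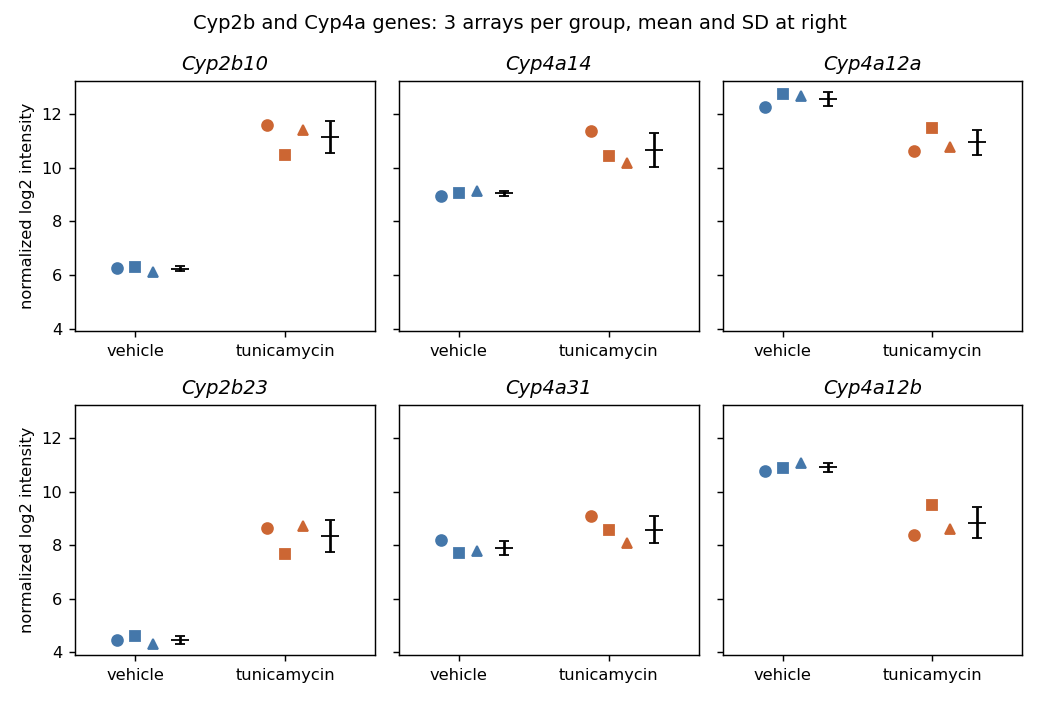
Normalized log2 bead intensity (y axis) of each array for the tested Cyp2b and Cyp4a genes, vehicle in blue and tunicamycin in orange, with circles, squares and triangles for replicates 1, 2 and 3. Cyp2b10 and Cyp2b23 rise without overlap, Cyp4a14 rises and Cyp4a12a and Cyp4a12b fall without overlap, and the groups of Cyp4a31 overlap.

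Of 4 tested Cyp4f genes, which act on leukotrienes and long-chain fatty acids, 3 fell, and the array carries 9. Cyp4f14, a leukotriene B4 hydroxylase, went from 12.18, 12.03 and 12.18 to 10.77, 10.75 and 10.65 (2.65-fold, -1.41 ± 0.10 SE, limma adjusted p = 1.34e-06). Cyp4f15 went from 9.90, 10.04 and 9.91 to 8.64, 8.62 and 8.23 (2.74-fold, -1.45 ± 0.13 SE, limma adjusted p = 5.79e-06). In both, every treated array lay more than 1 log2 unit below every control. Cyp4f13 fell by less (-0.45 ± 0.10 SE, limma adjusted p = 0.0035), and with each array scaled by its median instead of by quantiles it was not called (adjusted p = 0.0613). Cyp4f16 had overlapping groups and a log2 fold change of -0.20 ± 0.15 with a 95% interval of -0.54 to 0.15 (limma adjusted p = 0.297).

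Cyp4v3, the counterpart of human CYP4V2, a fatty acid hydroxylase, fell from 11.90, 11.74 and 11.92 to 10.45, 11.13 and 10.60. The groups did not overlap (2.18-fold, -1.13 ± 0.17 SE, limma adjusted p = 0.000192). Cyp4b1, which activates the toxin 4-ipomeanol, stood at 6.16, 6.23 and 6.55 with vehicle and 6.36, 6.79 and 6.34 with tunicamycin (95% interval -0.16 to 0.53, limma adjusted p = 0.319). Its groups overlapped, as did those of Cyp4b1-ps2 (0.10 ± 0.12 SE, limma adjusted p = 0.498).

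Among the other families, 5 of 12 genes were tested, of which 2 fell and 2 rose. Cyp26a1, which breaks down retinoic acid, stood at 8.58, 6.95 and 7.46 with vehicle and 5.85, 5.89 and 5.95 with tunicamycin. The controls were spread over more than 1 log2 unit while the treated arrays were close together, and the fall was 3.40-fold (-1.76 ± 0.32 SE, limma adjusted p = 0.000815). Without background correction the log2 fold change was -1.08. Its other probe had a log2 fold change of -0.64 and was not called (limma adjusted p = 0.0583 over all probes). Cyp17a1, the steroid 17α-hydroxylase, went from a mean of 7.06 ± 0.23 (SD, n = 3) to 6.05 ± 0.40 (SD, n = 3), and its arrays did not overlap (2.01-fold, -1.01 ± 0.20 SE, limma adjusted p = 0.00127). It is listed among the genes with female-predominant liver RNA in mice. For this dim gene the log2 fold change was -0.56 without background correction.

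Cyp20a1, an orphan P450 with no settled substrate, rose from 5.22, 5.48 and 5.29 to 6.77, 6.81 and 7.05. All treated arrays lay more than 1 log2 unit above all controls (2.92-fold, 1.55 ± 0.12 SE, limma adjusted p = 2.04e-06). Without background correction the log2 fold change was 0.75. The other Cyp20a1 probe was detected on no array and had a log2 fold change of 0.21, so the rise rests on 1 probe. Cyp39a1, an oxysterol 7α-hydroxylase, rose from 4.87, 4.64 and 4.71 to 5.37, 5.86 and 5.70, with 0.91 ± 0.14 SE (limma adjusted p = 0.000273) and 0.30 without background correction. The other Cyp39a1 probe was detected on 2 arrays and so was not kept, and its log2 fold change was 0.22. Cyp11b2, the aldosterone synthase of the adrenal gland, was near the lower end of the scale, at 4.55, 4.68 and 4.71 and 4.81, 4.77 and 4.79. Its groups did not overlap, yet the difference was not called (0.14 ± 0.10 SE, limma adjusted p = 0.251). Cyp24a1, which breaks down vitamin D, was detected on tunicamycin replicate 2 alone and was not tested.

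The 40 P450 genes that were not tested gave signals at the level of the array background. Of these, 30 were detected on no array and 10 on 1 or 2 arrays, and their brightest probes had raw signals of 81.8 to 115. In a fit without the detection filter, over 29453 items, 3 of them were called, all lower, namely Cyp2c39, Cyp2s1 and Cyp2g1, with log2 fold changes of -0.28, -0.25 and -0.63. Those 3 are named after their values were seen, and the others were not called in that fit.

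Where a gene had several kept probes, which was so for 9 of the 42, 0 had probes called in opposite directions. For 3 of the 9, Cyp2b10, Cyp2c50 and Cyp26a1, the fold changes of the probes differed by over 1.5 times. In these the dimmer kept probe was detected on 4, 3 and 3 arrays, in that order, and its signals were near background. That of Cyp2b10 was kept only through tunicamycin arrays and that of Cyp2c50 only through vehicle arrays, so their directions are not independent of the filter. Cyp2a5 and Cyp3a13 had 0 called probes and Cyp26a1 had 1, so opposite calls were not possible for these genes. Cyp2d26 had 3 probes, all called lower, at -0.65 to -0.39. Cyp2c37 had probes at -1.16 and -0.97.

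**Figure D4:**
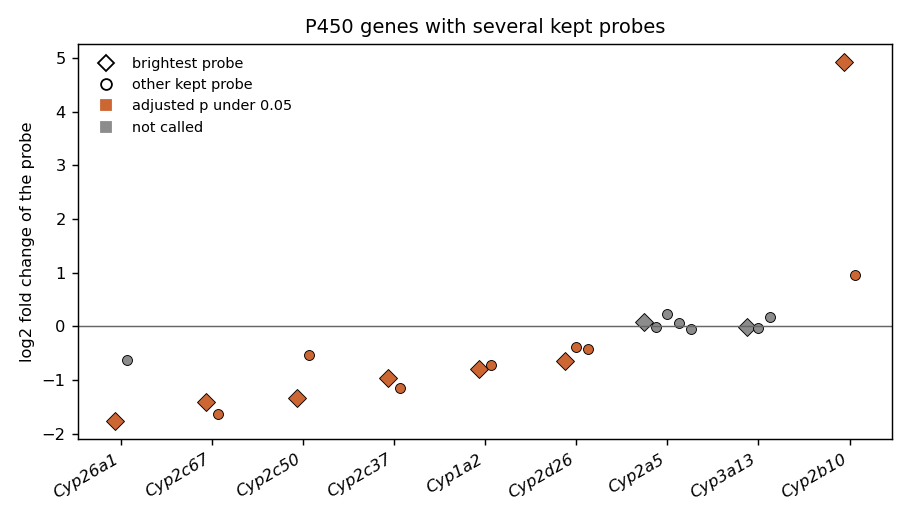
Log2 fold change (y axis) of each kept probe of the 9 P450 genes with several, with diamonds for the brightest probe, circles for the others, orange for an adjusted p under 0.05 and grey for not called. The probes of Cyp2b10 lie at 4.93 and 0.95, and no gene has called probes on both sides of 0.

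Transcripts for proteins that serve P450 enzymes were measured as well. Of 7 tested electron transfer partners of 13 listed, 4 fell and 1 rose, with a median log2 fold change of -0.30. For these counts and those of the heme genes below, the shares over all items were 31.4% lower and 31.0% higher. Cyb5r3, a cytochrome b5 reductase, fell 4.06-fold (limma adjusted p = 1.05e-07), and Cyb5r1, another reductase of that family, rose 6.47-fold (limma adjusted p = 1.52e-07). The log2 fold change of Cyb5r1 was 2.69, or 1.38 without background correction. Cyb5a, the cytochrome b5 that passes electrons to some P450 enzymes, was not called, at 0.03 ± 0.10 SE. Heme is the cofactor of all P450 enzymes, and of 15 tested genes of its synthesis and breakdown 8 rose and 3 fell, with a median of 0.44. Flvcr1, a heme exporter, rose 3.65-fold (limma adjusted p = 3.4e-06). Slc25a38, the mitochondrial glycine carrier for heme synthesis, rose 2.89-fold (limma adjusted p = 1.64e-06). Alas1, which makes the first precursor of heme, rose 1.61-fold (limma adjusted p = 0.0106, but 0.071 without the detection filter), and Fech, which inserts the iron, fell 1.92-fold (limma adjusted p = 0.000123).

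Of 23 tested regulators of P450 transcription, of 31 listed, 15 fell and 4 rose, with a median log2 fold change of -0.54. Over all items 31.4% fell and 31.0% rose. Nr1i3, which encodes CAR, went from 9.32, 9.36 and 9.17 to 6.09, 6.32 and 6.05. It fell 8.73-fold without overlap (limma adjusted p = 1.92e-08), while the CAR target Cyp2b10 rose on the same arrays. Dbp, a PAR bZIP factor of the circadian output, fell 12.8-fold (limma adjusted p = 5.94e-07). Without background correction the log2 fold changes were -2.26 for Nr1i3, against -3.13, and -2.43 for Dbp, against -3.67. The genes for PXR (Nr1i2), for the shared partner RXRα (Rxra) and for PPARα (Ppara) fell 2.07-fold, 2.03-fold and 1.49-fold. Their log2 fold changes were -1.05, -1.02 and -0.57, or -0.69, -0.57 and -0.18 without background correction. Ppara was dim and detected on 2 of the 3 tunicamycin arrays. Cebpa fell 5.14-fold, a log2 fold change of -2.36, or -1.36 without background correction. Hnf4a, which encodes the HNF4 factor, was 1.24-fold lower (limma adjusted p = 0.0325), and this call was lost in 7 of 16 alternatives, among them leaving out vehicle replicate 2 or 3 or tunicamycin replicate 2 or 3 (highest adjusted p = 0.256). Ahr was not detected on any array. Ppargc1a, among the 15 that fell, was detected on all 3 vehicle arrays and on 0 tunicamycin arrays. Its place among the tested genes is therefore not independent of its fall.

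Other targets of these receptors moved both ways, as did all items, of which 31.4% fell and 31.0% rose. Of 13 tested CAR and PXR targets outside the P450 genes, 5 rose and 7 fell, with a median of -0.56. Aldh1a7 and Aldh1a1, aldehyde dehydrogenases, fell 7.60-fold and 4.81-fold (limma adjusted p = 1.75e-07 and 4.71e-06). The log2 fold change of Aldh1a7 was -2.93, or -2.34 without background correction. Of 16 tested PPARα targets 7 rose and 8 fell, with a median of -0.23. Fgf21, a fasting hormone that PPARα and stress both induce, rose 37.9-fold (limma adjusted p = 1.74e-07), a log2 fold change of 5.24, or 3.34 without background correction. Acot2, an acyl-CoA thioesterase, was detected on none of the vehicle arrays and on all 3 tunicamycin arrays, and it rose (limma adjusted p = 5.85e-08). The size of its rise was not settled, with log2 fold changes of 1.02 to 3.13 over the 16 alternatives. It passed the detection filter only through the tunicamycin arrays, so its place among the tested genes, and in the count of 7, is not independent of its rise. The reverse holds for Acot3, and for Gadd45b among the CAR and PXR targets. Both fell, and both were detected on all 3 vehicle arrays and on 0 tunicamycin arrays. Tuba8, another CAR and PXR target that fell, was detected on 3 vehicle arrays and 1 tunicamycin array. It too passed the filter only through the vehicle arrays. Of 4 tested AhR targets outside the P450 genes, 3 rose and 1 fell, with a median of 0.54. Gsta1, which is also listed among the CAR and PXR targets, rose 3.40-fold with wide spread (limma adjusted p = 0.0134). Its call was lost in 3 of 16 alternatives, namely without the detection filter, with the mean of its probes and with a trended, robust variance model (highest adjusted p = 0.118), and its log2 fold change went from 1.76 to 2.52 without tunicamycin replicate 2. Ugt1a6a rose 1.47-fold (limma adjusted p = 0.0345), and this call was lost in 7 of 16 alternatives. They included no background correction, no detection filter, the second deposited table, and leaving out vehicle replicate 2 or 3 or tunicamycin replicate 1 or 2 (highest adjusted p = 0.162). The count of 3 rests in part on these calls.

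Oxidoreductases of drug metabolism outside the P450 genes fell for 13 of 17 tested and rose for 2, with a median log2 fold change of -1.07. Over all items 31.4% fell and 31.0% rose. Aox3, an aldehyde oxidase, fell 12.4-fold (limma adjusted p = 2.44e-07), and Adh4, an alcohol and retinol dehydrogenase, fell 8.36-fold (limma adjusted p = 4.51e-08).

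Sex-biased genes were set out because growth hormone pattern drives many P450 genes. All 3 male-predominant P450 genes, Cyp2d9, Cyp4a12a and Cyp4a12b, fell, with a median of -1.61, where 31.4% of all items fell and 31.0% rose. Of the 10 listed female-predominant P450 genes only Cyp17a1 and Cyp39a1 were tested, the former lower and the latter higher. Of 6 tested sex-linked or sex-biased genes outside the P450 genes 3 fell and 0 rose, and these 3 included Hsd3b5 and Elovl3, both male-predominant, at 86.6-fold and 7.16-fold (limma adjusted p = 5.21e-08 and 5.14e-06). Their log2 fold changes were -6.44 and -2.84, or -5.14 and -1.86 without background correction. The tested genes of this list that were not called were the sex-linked Eif2s3y, Kdm5d and Uty. Xist, Sult2a1, Sult3a1, A1bg and Cux2 were not detected on any array, so the count does not compare male-predominant with female-predominant genes.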

How the data were processed

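The deposited table of bead intensity held, per the file headers, an average signal and a detection p-value for each of 45281 probes on each of 6 arrays; the authors' signals were, from their values, neither background-subtracted nor normalized. A second deposited table, of background-subtracted and quantile-normalized intensity as read from its values (99.97% of ranked values within 0.1 across arrays), served as an alternative. Scanner and software: not given in the sources used here.

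In limma 3.58.1 (R 4.3.3) normexp background correction (background inferred from detection p-values) was followed by adding 16 as an offset, quantile normalization and log2 transformation, which understates changes of dim genes. Summed marker levels are of 2 to the power of these values less the offset. The 16559 probes detected at p below 0.05 by 3 or more arrays were kept, the brightest probe per gene was taken, and 11678 items (9332 named genes) were tested by lmFit and eBayes with two-sided p-values and Benjamini-Hochberg adjustment, at 0.05. Each SD is over the 3 arrays of a group. Each SE is limma's moderated error of the difference between the groups, with a variance that borrows from all items. The number of arrays limits the precision. On simulated data for this comparison with 11678 items, 85% of 200 items changed by 1 log2 unit were recovered, with 11 false calls.

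Probe names came from the platform annotation (34885 probes with 1 symbol, 18 with several, 10378 without). All 82 genes have an entry in the RefSeq table of GRCm38.p6, which was used for gene order only. Promoter windows were from RefSeq on the same build, aligned in pairs with Biopython 1.88. The sources used here name no build for the files.

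Nothing states that the samples came from separate animals, so p-values reflect the spread among these arrays, which may be technical. Replicate numbers come from titles. The sources used here give no chip or scan batch.

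The P450 genes, the gene lists and the rule for named genes were chosen with earlier results of these data known. The rule names 33 index genes, up to 5 called genes with the largest rise and fall per family, the 5 with the highest vehicle value, and up to 2 genes per other list. Genes outside it (12 of the tested P450 genes, and Cyb5a, Alas1, Fech, Nr1i2, Rxra, Ppara, Cebpa and Hnf4a) were named after their values were seen. So were genes named only for their detection or for lack of a call. The 16 alternatives cover background, offset, scaling, filter, probe choice, table, variance model, replicate block and leaving out each array.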

Additional observations from a re-analysis of the deposited data

How the results depend on the processing

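Over the 16 alternatives, 5 to 6 P450 genes were higher and 27 to 31 lower after tunicamycin, where the reported counts were 6 and 28. With each array left out in turn the counts were 5 to 6 higher and 28 lower, and 56.9% to 61.9% of all items were called, against 62.4%. Without the detection filter this share was 23.3% of 29453 items, since many probes at background level then entered the test. Of the 34 called P450 genes, 32 were called in the same direction in every alternative that gave a value; the exceptions were Cyp4a31 and, with 1 median per array, Cyp4f13. Of the 8 uncalled, 0 were called in any alternative, and Cyp11b2 had no value under the stricter filter. Among the other genes named with a fold change, Gsta1, Ugt1a6a, Hnf4a and Alas1 lost their call in at least 1 alternative, and 0 reversed. Dim genes had smaller fold changes without background correction.

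Samples with the same replicate number deviated together only weakly, with correlations of 0.116, 0.0537 and 0.0029 for replicates 1, 2 and 3, so the numbers were not taken as pairs. With a replicate block 6 P450 genes were higher and 28 lower, and 62.7% of all items were called. Of the genes named with a fold change, Hnf4a lost its call. The replicate 3 samples correlated better with another number, at 0.0713, than with their own.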

Other observations

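Among the 34 called P450 genes, tunicamycin replicate 2 was the treated array nearest to the vehicle mean for 21 genes (61.8%), replicate 1 for 6 and replicate 3 for 7. Among all 7291 called items the shares were 41.3%, 29.6% and 29.2%. The genes share arrays and are not independent. The median SD over 3 arrays was 0.131 with vehicle and 0.128 with tunicamycin for the 42 P450 genes, and 0.141 and 0.125 over all items.

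Xist was not detected on any array, and the Y-linked gene Eif2s3y was detected on all 6, at 7.40, 7.55 and 7.64 with vehicle and 7.32, 7.59 and 7.71 with tunicamycin on the normalized log2 scale.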
